A study of Mus musculus with 2 samples.

Results

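The alpha1 subunits of the voltage-gated calcium channels are encoded in the mouse by 10 Cacna1 genes. These are the 4 Cav1 genes Cacna1s, Cacna1c, Cacna1d and Cacna1f, the 3 Cav2 genes Cacna1a, Cacna1b and Cacna1e, and the 3 Cav3 genes Cacna1g, Cacna1h and Cacna1i. Their peaks were collected from Prrc2a RIP-seq, in which an antibody against the RNA-binding protein Prrc2a pulls down its RNA for sequencing. Wild type C57BL/6J male mice aged 4 weeks provided whole brain, with 3 brains named in the protocol, and the assay was deposited as 2 replicates of 1 condition without a treatment or a second genotype. A peak belonged to a member when it overlapped an exon of any GENCODE M21 transcript of that gene by at least 1 bp, and it was shared when a replicate 1 peak overlapped a replicate 2 peak by at least 1 bp. By this rule 37 of 18129 peaks in replicate 1 and 99 of 18671 peaks in replicate 2 lay over exons of the 10 genes, and 23 of 8372 shared peaks did. Each peak carries a fold enrichment, the linear ratio of pulled-down over control signal. With a single condition no test between groups was possible, and all values are given per replicate. The files give no read totals, so depth was unknown and a gene without a peak could not be told apart from one with too few reads. A peak is a measure of enrichment and not of expression.

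Voltage-gated calcium channels open when the membrane is depolarised and let calcium into the cell, where it triggers transmitter release, contraction, firing patterns and transcription. The alpha1 subunit forms the pore from 4 homologous repeats, each with a positively charged S4 helix that senses voltage, and auxiliary alpha2delta, beta and gamma subunits set its trafficking and gating. Cav1 channels carry long-lasting L-type current, Cav2 channels carry the P/Q-, N- and R-type currents of nerve terminals and dendrites, and Cav3 channels carry the low-threshold T-type current.

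Shared peaks were found in 5 of the 10 genes, beside 12% of all 21951 protein-coding genes. Among genes with at least the 6550 exon bases of the shortest member the share was 32.3%. By midpoint 14 of the 23 shared peaks lay in coding sequence (60.9%), and by most overlapping bases 47.8% did. For Cacna1c, Cacna1d, Cacna1h and Cacna1i the longest run of coding bases under both replicates of the most enriched shared peak of the gene, among those with a run of at least 50 bases, is printed to show what the pulled-down RNA encodes. The runs were read from the mm10 (GRCm38) assembly on the strand of the gene, 5′ to 3′, with GGAC in capitals, the letters of the motif at which m6A, a methylated adenosine in mRNA, is often placed. Exons are numbered in the longest coding transcript. The Cacna1c stretch, chr6:118696421-118696516 on the minus strand, is part of exon 14 and ends in the S4 helix of repeat II. Its 96 bases are all the exonic bases of a 200 bp replicate 1 peak with its midpoint in intron. The Cacna1d stretch, chr14:30123026-30123233 on the minus strand, is the whole of exon 15, just after the same helix. The peak also covered part of exon 14, which encodes the helix and is not printed. The Cacna1h stretch, chr17:25392070-25392369 on the minus strand, is in exon 9, and the Cacna1i stretch, chr15:80361918-80362217 on the plus strand, is in exon 10. Both encode the loop between repeats I and II. For Cacna1h and Cacna1i the middle 300 bases are shown.
Cacna1c exon 14: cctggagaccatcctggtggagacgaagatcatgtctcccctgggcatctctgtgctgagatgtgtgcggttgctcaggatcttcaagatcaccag
Cacna1d exon 15: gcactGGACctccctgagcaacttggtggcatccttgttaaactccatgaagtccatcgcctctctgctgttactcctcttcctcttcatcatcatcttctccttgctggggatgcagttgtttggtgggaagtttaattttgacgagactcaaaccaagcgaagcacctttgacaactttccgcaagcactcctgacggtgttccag
Cacna1h exon 9: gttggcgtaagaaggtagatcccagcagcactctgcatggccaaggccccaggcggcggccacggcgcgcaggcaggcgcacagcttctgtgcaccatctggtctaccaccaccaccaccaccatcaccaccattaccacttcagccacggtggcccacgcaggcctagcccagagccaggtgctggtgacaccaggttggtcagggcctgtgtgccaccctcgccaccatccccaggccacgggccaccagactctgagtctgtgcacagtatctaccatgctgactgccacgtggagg
Cacna1i exon 10: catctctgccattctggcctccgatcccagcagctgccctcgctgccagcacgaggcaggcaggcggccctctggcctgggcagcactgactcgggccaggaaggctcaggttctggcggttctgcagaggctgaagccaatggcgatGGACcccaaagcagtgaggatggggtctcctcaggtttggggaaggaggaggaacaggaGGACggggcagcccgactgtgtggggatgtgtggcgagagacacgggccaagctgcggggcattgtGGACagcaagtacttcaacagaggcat

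The Cacna1c and Cacna1h stretches hold no GGAC, the Cacna1d stretch 1 and the Cacna1i stretch 3. The enrichment of these peaks was 3.04 in replicate 1 and 4.24 in replicate 2 for Cacna1c, and 4.02 and 7.53 for Cacna1d. It was 1.75 and 1.73 for Cacna1h and 2.27 and 4.13 for Cacna1i. By the mean of both replicates the order was Cacna1d, Cacna1c, Cacna1i and Cacna1h, so the printed GGAC counts did not follow the enrichment.

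Shared peaks were present in Cacna1c, Cacna1d, Cacna1e, Cacna1h and Cacna1i, while Cacna1a, Cacna1b and Cacna1g had exonic peaks in replicate 2 alone and Cacna1s and Cacna1f had none. The alpha1 genes are long, with 6550 to 25228 exon bases (median 10039.5) against a median of 3498 over all protein-coding genes. Among the 4356 genes with at least 6550 exon bases, 32.3% had a shared peak. Counted in replicate 1, whether shared or not, 5 members had an exonic peak, beside 16.5% of protein-coding genes of any length. Counted in replicate 2, 8 members did, beside 21%. With a shared peak in 2 of 4 Cav1 genes, 1 of 3 Cav2 genes and 2 of 3 Cav3 genes, each channel class was represented. The classes held 8, 6 and 9 shared peaks.

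**Figure D1:**
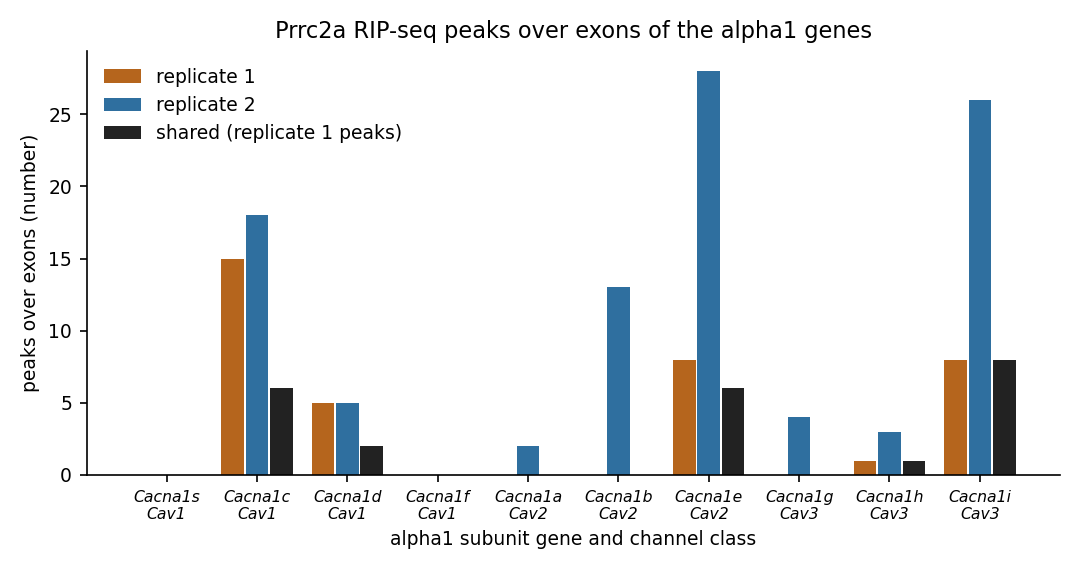
Number of peaks over exons of each alpha1 gene in replicate 1, in replicate 2 and shared between them (counted as replicate 1 peaks). Cacna1e (28) and Cacna1i (26) had the most peaks in replicate 2, Cacna1c (15) the most in replicate 1, and Cacna1s and Cacna1f had none.

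Among the Cav1 genes, Cacna1s encodes the channel of skeletal muscle and Cacna1f that of retinal photoreceptors. Neither had an exonic or an intronic peak in either replicate. Of the 5 skeletal muscle markers and the 5 retina markers examined, none had an exonic peak either. Most genes lacked one, since 16.5% of all protein-coding genes had an exonic peak in replicate 1 and 21% in replicate 2. The 3 endothelium markers had none as well, so the lack of a peak says nothing about expression.

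Cacna1c, which encodes the main L-type channel of neurons and heart muscle, had 15 exonic peaks in replicate 1 and 18 in replicate 2, of which 6 were shared. It was the only member with an exonic peak to have a larger share of its exon bases under peaks in replicate 1 (21.8%) than in replicate 2 (13.6%). The fold enrichment of its exonic peaks ran from 1.54 to 4.60 in replicate 1 and from 1.72 to 6.02 in replicate 2. The shared peaks started at the 5′ end of the coding sequence. One at chr6:119107890-119108128 covered residues 1 to 17 at 1.59 in replicate 1 and 1.86 in replicate 2, and the next at chr6:119057295-119057552 covered residues 17 to 90 at 2.34 and 1.72. The pair lie on neighbouring exons of the mature transcript and encode the cytoplasmic N-terminus. The peak at chr6:118613779-118614223, over residues 1494 to 1549 after the S4 helix of repeat IV, had 2.02 and 2.37. The replicate 1 peak over the end of the coding sequence, chr6:118593290-118593972, had 2.17. Its replicate 2 partner, chr6:118593291-118593568, lay wholly in the 3′ UTR and had 2.38. A shared peak further into the 3′ UTR had 1.92 and 2.24. The 3′ UTR was where the replicates parted. Replicate 1 had 7 peaks with their midpoint there and replicate 2 had 2, both shared. Over the coding sequence the order was the other way, with 6 peaks in replicate 1 and 14 in replicate 2.

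Cacna1d encodes an L-type channel that opens at more negative voltages and paces neurons, sinoatrial cells and hair cells. It had 5 exonic peaks in each replicate and 2 of them were shared. The peak chr14:30122907-30123501, which carries the printed exon 15, had 4.02 in replicate 1 and 7.53 in replicate 2. It was the only shared peak of the family to reach 4 in both replicates. The second, chr14:30102240-30102602, covered residues 1023 to 1066 between the S4 helices of repeats III and IV, at 2.53 and 1.89. All 5 replicate 1 peaks had their midpoint in the coding sequence, whereas 2 of the 3 peaks found in replicate 2 alone lay in the 3′ UTR.

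The Cav2 genes encode the presynaptic channels, and they differed most between replicates. Cacna1a, which encodes the P/Q-type channel of Purkinje cells and nerve terminals, had no exonic peak in replicate 1 and 2 in replicate 2, at 1.62 in the 5′ UTR and 1.42 in the coding sequence. A shared peak lay wholly in an intron near its 5′ end, chr8:84414654-84415168, with 1.88 in replicate 1 and 1.87 in replicate 2, and was outside the rule. Cacna1b, which encodes the N-type channel, had no peak in replicate 1 and 13 in replicate 2. Those 13 covered 22.0% of its exon bases, with enrichment from 1.41 to 4.94. Nothing in the lists of replicate 1 met them. Of the 47 exons of its main transcript 13 had a replicate 2 peak.

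Cacna1e, which encodes the R-type channel of dendrites and terminals, had 8 exonic peaks in replicate 1 and 28 in replicate 2, and 6 replicate 1 peaks were shared. An upstream exon outside the coding sequence held the peak chr1:154799405-154799628, with 2.25 and 3.99. A pair over exons 20 and 21 cover the long loop between repeats II and III. Their coding bases are shown because, among the windows of up to 300 coding bases in shared peaks of the family, only theirs hold 5 GGAC under both replicates. They are chr1:154472215-154472514 and chr1:154471345-154471644 on the minus strand.
Cacna1e exon 20: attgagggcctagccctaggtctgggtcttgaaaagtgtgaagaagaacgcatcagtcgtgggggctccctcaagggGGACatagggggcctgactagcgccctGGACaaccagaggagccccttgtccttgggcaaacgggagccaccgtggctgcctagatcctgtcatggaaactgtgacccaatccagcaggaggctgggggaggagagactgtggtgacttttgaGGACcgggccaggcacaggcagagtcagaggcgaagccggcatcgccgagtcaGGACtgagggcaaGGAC
Cacna1e exon 21: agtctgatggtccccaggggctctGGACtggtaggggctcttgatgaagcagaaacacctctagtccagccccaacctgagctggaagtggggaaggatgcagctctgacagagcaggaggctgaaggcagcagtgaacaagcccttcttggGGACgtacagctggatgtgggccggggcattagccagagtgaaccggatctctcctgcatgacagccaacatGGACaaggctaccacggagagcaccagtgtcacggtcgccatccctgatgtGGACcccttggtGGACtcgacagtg

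The enrichment at exon 20 was 1.72 in replicate 1 and 1.89 in replicate 2, and at exon 21 it was 1.67 and 1.44, all below the medians of the 23 shared peaks in the same replicate (1.92 and 2.24). The C-terminal peak chr1:154398409-154398797, over residues 2140 to 2269, had 1.76 and 1.78 and held no GGAC. The highest value of the gene, 6.78 in replicate 1 against 3.15 in replicate 2, belonged to chr1:154448666-154448865, of which 20 of 200 bp were exonic. That peak touched the end of the S4 helix of repeat III, and the rest of it was intron. In the basic annotation, which keeps fewer transcripts, 5 of the 6 shared peaks remained exonic.

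The Cav3 genes encode T-type channels, which drive burst firing in the thalamus and elsewhere. Cacna1g, the main T-type gene of thalamic relay neurons, had no peak in replicate 1 and 4 in replicate 2, at 4.97, 2.20, 2.12 and 1.40. Cacna1h, whose T-type channel is prominent in sensory neurons, had 1 peak in replicate 1 and 3 in replicate 2. Its shared peak, over residues 481 to 588, had almost equal values of 1.75 and 1.73.

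Cacna1i encodes the T-type channel of the thalamic reticular nucleus and had the most shared peaks of the family. All 8 of its replicate 1 peaks were shared, and they met 7 of its 26 replicate 2 peaks, because 2 replicate 1 peaks in the 3′ UTR met a single 857 bp peak. Per kb of exon it had 0.811 shared peaks, against a median of 0.325 over the protein-coding genes that had any. Only 104 genes had more shared peaks and 53 genes, Cacna1i included, had 8. Cacna1c and Cacna1e, with 6 each, ranked at 220. Replicate 2 had a peak over 26 of the 37 exons of the main transcript and replicate 1 over 6. In bases, 65.2% of its exons were under a replicate 2 peak, 27.1% under a replicate 1 peak and 24.6% under both.

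Along the Cacna1i protein the shared peaks began at the S4 helix of repeat I and ended past the stop codon. The peak over residues 159 to 192 had 1.90 in replicate 1 and 3.01 in replicate 2. Those over residues 245 to 350 and 382 to 486 had 2.08 and 2.26, and 1.60 and 2.68. The printed exon 10 lies in the next, over residues 486 to 622, with 2.27 and 4.13. These 4 stand on the stretch from the voltage sensor of repeat I into the loop after it. The peak over residues 929 to 1035, in the loop between repeats II and III, had 1.51 and 2.15, and that over residues 1987 to 2199, the end of the protein, had 1.90 and 2.36. The 3′ UTR peaks had 1.63 and 1.43 in replicate 1, and the replicate 2 peak over both had 2.07. In all 8 the value of replicate 1 was the lower.

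**Figure D2:**
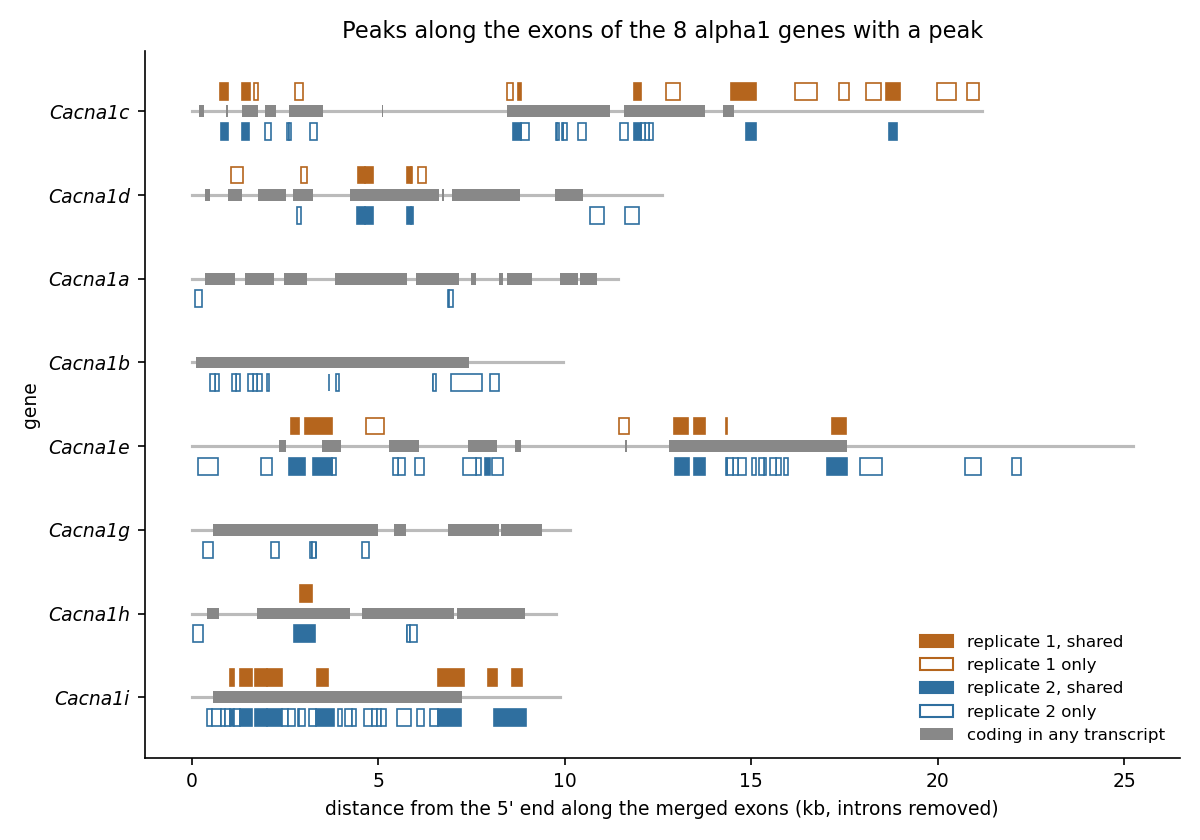
Position of every exonic peak along the merged exons of the 8 alpha1 genes that had any, in kb from the 5′ end with introns removed, with replicate 1 above and replicate 2 below the gene line. Filled boxes are shared, open boxes were found in that replicate alone, and grey marks bases that code in any transcript. Boxes of Cacna1b and Cacna1g stand in replicate 2 alone, and all 8 replicate 1 boxes of Cacna1i are filled.

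Members had 2.68 times as many exonic peaks in replicate 2 as in replicate 1, against 1.35 times for all protein-coding genes and 1.37 times for those with at least 6550 exon bases. Gene lists of the pathway varied in this, with 9 exonic peaks in replicate 1 and 20 in replicate 2 for the auxiliary subunits, 50 and 58 for the calcium release channels, and 31 and 41 for the presynaptic partners. Each of these lists had more exonic peaks in replicate 2, as did all protein-coding genes, so the direction was not particular to the alpha1 genes. The size of the excess varied between lists, and the difference of the members from other genes was not tested. Of the members' replicate 1 peaks 62.2% were shared, close to 61.3% for all protein-coding genes, but of their replicate 2 peaks 23.2% were shared against 47.9%. The peaks of 1 replicate alone were 14 in replicate 1 and 76 in replicate 2. Those 76 had a median enrichment of 2.14, beside 2.24 for the 23 shared replicate 2 peaks. Over all protein-coding genes the corresponding medians were 2.26 and 2.76. Whether the 2 libraries differed in depth could not be read from the lists.

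**Figure D3:**
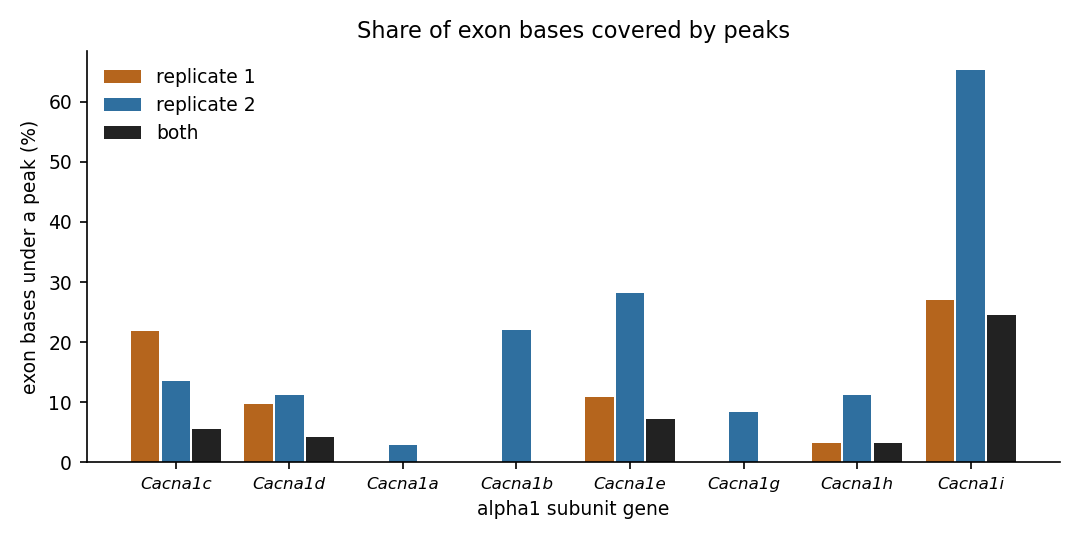
Share of the exon bases of each alpha1 gene with a peak that lay under a replicate 1 peak, under a replicate 2 peak and under both, in percent. Cacna1i reached 65.2% in replicate 2 and 24.6% in both, and Cacna1c was higher in replicate 1 (21.8%) than in replicate 2 (13.6%).

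Most shared peaks of the family were less enriched than the typical shared peak. Their median fold enrichment was 1.92 in replicate 1 (1.43 to 6.78) and 2.24 in replicate 2 (1.44 to 7.53), against 2.27 and 2.81 for all 7317 shared peaks in protein-coding genes. In 5 of the 23 the mean of both replicates was above the all-gene median of 2.59. The log2 ratio of replicate 1 over replicate 2 was -0.23 at the median with an SD of 0.48 over the 23 peaks, and -0.26 with an SD of 0.52 over all. Replicate 1 was lower in 17 of 23, or 73.9%, close to 71.3% of all. By gene it was lower in 5 of 6 for Cacna1c, 3 of 6 for Cacna1e and 8 of 8 for Cacna1i. Across the 23 peaks Spearman's rho between replicates was 0.457, and across all it was 0.554. Peaks of 1 gene share a transcript and are not independent, so both are descriptions.

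**Figure D4:**
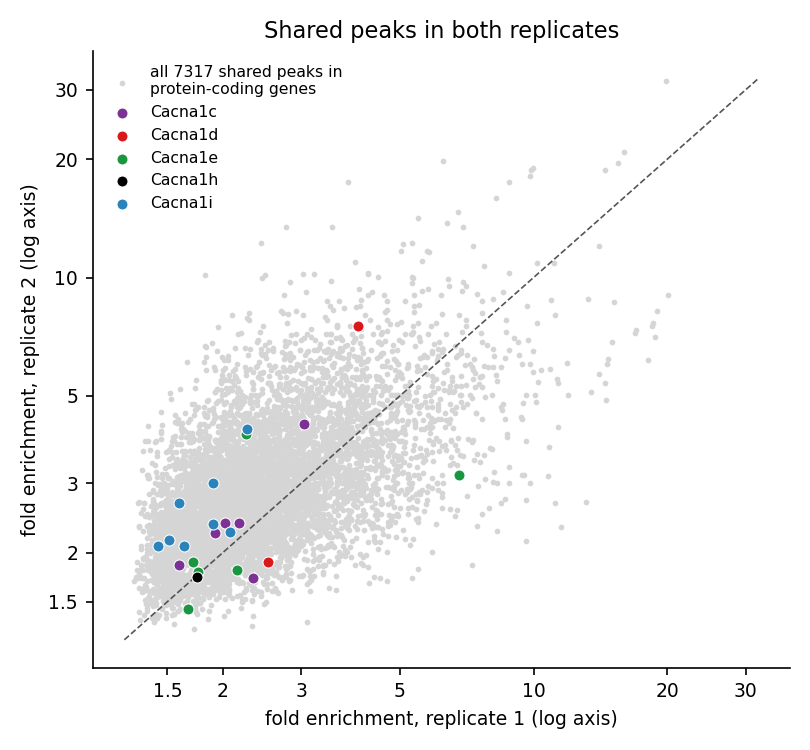
Fold enrichment of each shared peak in replicate 1 and replicate 2, on log axes, for the 23 peaks of the alpha1 genes (coloured by gene) over all 7317 shared peaks in protein-coding genes (grey), with the line of equal values dashed. All 8 Cacna1i points are above the line, and the Cacna1d peak at 4.02 and 7.53 is the only member at 4 or more in both.

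By midpoint 14 of the 23 shared peaks (60.9%) lay in coding sequence, 4 (17.4%) in a 3′ UTR, 2 (8.70%) in a 5′ UTR, 1 in another exon and 2 in intron next to an exon they overlapped. Over all protein-coding genes the shares were 50.9%, 30.7%, 11.3%, 1.58% and 5.46%. The counting interval of the coding share ran from 38.5% to 80.3% (95% Clopper-Pearson, counting error only) and held the all-gene share. It takes the peaks as independent, which peaks of 1 gene are not, so it is a description and not a test. The 3′ UTR peaks belonged to Cacna1c and Cacna1i, with 2 each. Coding sequence held 76 of 99 member peaks in replicate 2 (76.8%) and 21 of 37 in replicate 1 (56.8%).

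Peaks lay more often on long exons, which also offer more bases to meet. In the 5 genes with a shared peak, 21 of 216 exons of the main transcripts overlapped one, and their median length was 313 bp against 124 bp for the other exons. Exons of at least 200 bp overlapped a shared peak in 15 of 39 cases (38.5%), and shorter ones in 6 of 177 (3.39%). All protein-coding genes with a shared peak gave 44.6% and 4.92%, so the alpha1 genes followed the general order. The replicates differed at the short exons. Over the 8 members with any exonic peak, short exons overlapped a peak in 3.83% of cases in replicate 1 and 23.0% in replicate 2. For all protein-coding genes with an exonic peak these shares were 4.98% and 8.71%. Long exons of the members overlapped a peak in 29.5% and 49.2%, against 34.3% and 44.1% for all protein-coding genes with an exonic peak. Member peaks in replicate 2 often spilled over their exon, the median exonic share of a peak being 46.3% in replicate 2 and 87.8% in replicate 1, with a median of 100% over all protein-coding genes in each.

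On the protein, 19 of the 23 shared peaks touched the coding sequence of the main transcript. The S4 helices were located as runs of 4 basic residues spaced 3 positions apart with uncharged residues between them, of which each of the 10 proteins held 4. An S4 run was overlapped by 4 shared peaks, those of Cacna1c and Cacna1d in repeat II, of Cacna1e in repeat III and of Cacna1i in repeat I. The Cacna1e peak, over residues 1273 to 1279 in replicate 1, met only the end of its run, residues 1255 to 1273. By the midpoint of their coding bases, before the S4 of repeat I lay 4 of the 19 peaks, between those of repeats I and II 5, between II and III 4, between III and IV 2, and after IV 4. The segments held 9.69%, 21.4%, 22.2%, 14.9% and 31.9% of the residues of the 5 proteins. The paralogs Cacna1c and Cacna1d thus had a shared peak at the same helix, residues 645 to 657 in the first and 639 to 651 in the second. For Cacna1c this rests on the 1 bp overlap rule. Its replicate 1 peak had 96 of 200 bp exonic, with the midpoint in intron. That peak covered 47.3% of its replicate 2 partner, so it was not shared at an overlap of 50% of both peaks. The Cacna1d peak had 391 of 595 bp exonic in replicate 1 and stayed shared at that setting. In Cacna1e a replicate 2 peak over residues 585 to 629 met the end of the matching helix, and its replicate 1 partner lay in the adjoining intron. The end of the coding sequence was under 2 shared peaks in replicate 1, in Cacna1c and Cacna1i. Neither replicate 2 partner reached it. That of Cacna1c held no coding bases, and that of Cacna1i ended at residue 2195 of 2199. Cacna1e went the other way. Its shared C-terminal peak reached the last residue, 2273, in replicate 2 and stopped at residue 2269 in replicate 1.

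GGAC was searched on the strand of the gene in the exonic bases of each shared peak. It occurred in 15 of 23 peaks (65.2%) with 43 sites, against 77.9% of all 7256 shared peaks that could be read. The 95% Clopper-Pearson interval of the 65.2%, from 42.7% to 83.6%, also takes the peaks as independent. Member peaks held a mean of 316 exonic bases and all peaks 612, and a longer stretch has more room for a match. Per kb the members had 5.91 sites and all peaks 4.64. Exon bases of the same 5 genes outside every peak had 3.82 per kb. Base composition moved with it, with a GC content of 60.0% in the members' shared peaks, 49.4% outside and 52.6% in all shared peaks. Within coding sequence alone the gap was smaller, 6.93 per kb at 61.4% GC inside shared peaks and 5.81 at 54.2% GC outside. The part of GC content in these differences was not tested.

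All 8 Cacna1i peaks held GGAC, and their 23 sites made 53.5% of the 43. Cacna1e had 14 sites in 3 of its 6 peaks, Cacna1c 5 in 3 of 6, Cacna1d 1 in 1 of 2, and Cacna1h none. The C-terminal peak of Cacna1i held 6, the most of any. The longer GGACT occurred in 6 of the 23 peaks (26.1%), against 43.1% of all shared peaks, which were longer. Per kb the members' shared peaks had 0.963 GGACT sites, and exon bases of the same genes outside every peak had 0.956. Within coding sequence alone GGACT was less dense inside shared peaks (1.22 per kb) than outside (1.40), unlike GGAC. In member peaks of replicate 2 alone the density of GGAC was 4.80 per kb, and in those of replicate 1 alone it was 4.63.

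Peaks wholly within introns went the opposite way from exonic ones. The members had 39 in replicate 1 and 4 in replicate 2, of which 25 in replicate 1 lay in Cacna1e, and all genes had 4212 and 1330. The members' median enrichment was 4.35 in replicate 1 (1.88 to 6.88) and 2.80 in replicate 2. In replicate 1, 32 of these 39 peaks had an enrichment value that at least 10 peaks of that list share exactly, against 0 of the 37 exonic peaks. What the tied values reflect was not tested. No exonic member peak overlapped an exon of another gene.

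Shared peaks were also found in some genes of the auxiliary, calcium release and presynaptic lists. Among 16 auxiliary subunit genes, 5 had a shared peak. They were the alpha2delta gene Cacna2d1, with 1, and the gamma genes Cacng2, Cacng3, Cacng4 and Cacng8. Cacng4, which encodes a gamma subunit that also escorts AMPA receptors, had 3, the most, with 3 peaks in each replicate. None of the 4 beta subunit genes had one. Of 6 genes for intracellular calcium release channels, Ryr1 (1), Ryr2 (10) and Ryr3 (9) had shared peaks, and Ryr2, the main ryanodine receptor of heart and brain, had 15 peaks in replicate 1 and 28 in replicate 2. Of 9 presynaptic partners, Rims2 (2), Rimbp2 (3), Bsn (11) and Pclo (8) did, and Bsn, an active zone scaffold, had 11 and 15. These shares, 31.2%, 50.0% and 44.4%, stood beside 50.0% for the alpha1 genes, 12% for all protein-coding genes and 32.3% for those with at least 6550 exon bases. With lists this small, and differing in length, nothing about the pathway can be read from them. The median exon length was 4269.5 bp for the auxiliary genes and 8338 to 18648 bp for the other lists.

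As a check of the tissue, a shared peak was found in 0 of 8 neuron markers, 1 of 5 astrocyte markers (Slc1a2), 0 of 6 oligodendrocyte markers, 2 of 4 microglia markers (Csf1r and Tmem119) and 0 of 3 endothelium markers. Over all protein-coding genes the share was 12%, and the marker lists are too small to be told apart from it. Peak lists hold no expression, so these counts neither identify the tissue nor say which cells the channel RNA came from.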

How the data were processed

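Trimmed reads were mapped by the authors to mm10 (TopHat), reduced to unique alignments and used to call peaks in each replicate separately with MACS2 at an FDR below 0.05. Versions in the submitters' processing notes are TopHat2 2.0.9 and MACS2 2.0.10. The deposited value of each peak is a fold enrichment, a linear ratio over a control library that is not given in the sources used here. The lists hold no strand, gene, FDR or read total.

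Positions were used as 1-based. Exons came from GENCODE M21 and sequences from the RefSeq FASTA of GRCm38.p6, read with samtools 1.23.1 and pysam 0.24.0. Proteins were translated with Biopython 1.88 from the longest coding transcript (the main transcript), to find residue numbers only. A shared peak overlapped a peak of the other replicate by at least 1 bp. Where a replicate 1 peak met several, the one with the most overlapping bases gave the replicate 2 value. Regions were read at peak midpoints. Calculations used Python 3.11.15, numpy 2.4.6 and scipy 1.17.1, and figures matplotlib 3.10.9. On simulated data all 5 planted quantities were recovered exactly.

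All 10 members are named, and of each other list every gene with a shared peak, with per-replicate counts for the one with the most. The members and lists were chosen with earlier results of these data known. No test was run, since there was 1 condition with 2 replicates. Whether the replicates came from separate animals is not stated in the labels. Alternatives changed the overlap, the enrichment, the replicates used, the annotation, the gene assignment, the region rule and the motif. A list of sodium channel genes and a stretch of sequence are not reported here.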

Additional observations from a re-analysis of the deposited data

How the results depend on the processing

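The 5 genes with a shared peak were the same at an overlap of 50% of both peaks, with basic transcripts and with peaks given to 1 gene only, and Cacna1a joined them over whole gene spans. Requiring 4-fold enrichment in each replicate left 1 peak in 1 gene, Cacna1d (median of 1 peak per gene, mean enrichment 5.77, 100% in coding sequence), beside 1.59% of protein-coding genes. With 1 replicate left out, members with a peak ranged from 5 to 8, their peaks from 37 to 99, the share of protein-coding genes from 16.5% to 21%, the median enrichment from 1.92 to 2.15 and the coding share from 56.8% to 76.8%. The lower end of each range came without replicate 2, and Cacna1a, Cacna1b and Cacna1g had a peak without replicate 1. At an overlap of 50% of both peaks 77.8% of the remaining 18 shared peaks lay in coding sequence, and by most overlapping bases 47.8% of the 23 did. GGACT in place of GGAC gave 26.1%. Counts of single genes moved by over 1.5 times, or to or from 0, in 16 of 70 comparisons. The 70 include Cacna1s and Cacna1f, which stayed at 0 under every setting and could not move. The 4-fold setting moved each of the 5 genes with a shared peak. No paired analysis was possible because there was 1 group. Depth was unknown, so it sets no limit that could be stated here.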
